A study of Mus musculus with 6 samples.

Results

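Pou5f1, Sox2, Nanog, Sall4, Dppa3, Gdf3, Utf1 and Lin28a belong to the gene program that keeps mouse embryonic stem cells (mESCs) pluripotent, and the ATAC-seq peaks around these 8 of 22372 coding genes are described here. A peak was assigned to a gene when it overlapped the gene's GENCODE record in mm9 or lay within 50 kb of it. This gave 26 of the 22753 peaks in the WT list and 25 of the 23722 peaks in the Spen KO clone 3 list. Gdf3, Dppa3 and Nanog are neighbours on chromosome 6, and peaks that fell within reach of several of them are given for each gene but counted once in the totals.

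Both lists come from haploid mESCs of mixed background in which doxycycline switches on an Xist transgene on the X, grown in serum and LIF on gelatin. WT cells (HATX WT) have intact Spen, and Spen KO clone 3 is 1 clone that lacks most of the gene for Spen, a co-repressor that binds Xist RNA. For each line the sample records hold 1 sample at 0 ug/ml doxycycline and 1 at 2 ug/ml for 48 hr. The lists name the line only, so no value here is assigned to a doxycycline state. Each list holds the peaks that were reproducible between 2 technical replicates, Spen KO clone 2 was not analysed here, and with 1 list per line a difference between the lines cannot be told apart from a difference between cultures. The lists do not say whether the replicates of a line share a doxycycline state, so the spread between replicates, on which the comparisons of percentiles rest, may include an effect of doxycycline, which was not tested.

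Oct4, the product of Pou5f1, and Sox2 bind DNA side by side at a composite Sox-Oct element, and together with Nanog they occupy enhancers of their own genes and of many other genes of the mESC program. Sall4 works alongside them, while Dppa3, Gdf3, Utf1 and Lin28a are genes that these factors are known to control in mESCs. Open chromatin at such enhancers and at gene starts is what ATAC-seq detects, through the insertion of adapters by the Tn5 transposase.

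Of the 26 WT peaks, 15 overlapped a Spen KO clone 3 peak by at least 1 bp and 11 (42.3%) were found in the WT list only, against 25.7% of all WT peaks. Of the 25 Spen KO clone 3 peaks, 16 were shared and 9 (36.0%) were found in that list only, against 28.6% of all its peaks. The authors' replicate values have no named scale, so a value is read here through its percentile, the share of the same list's peaks at or below it, and the score of a peak is the mean of its 2 replicate values. The median score percentile was 24.9 for the WT peaks and 28.9 for the Spen KO clone 3 peaks at these loci, so most of them rank in the lower part of their list. The order of these medians is not stable: it turned round with replicate 1 alone (26.2 and 20.6), with replicate 2 alone (36.9 and 26.7) and with the lower of the replicate values (28.4 and 28.0). Peaks found in 1 list only are common there: among all peaks at or below percentile 25 by score, 59.3% of WT peaks and 60.7% of Spen KO clone 3 peaks were found in that list only, and at these loci it was 10 of 13 and 8 of 12. No peak found in 1 list only at the 8 loci reached the median score of its list. The best of them stood at percentile 28.4 in WT and 30.3 in Spen KO clone 3. Most such peaks of the whole lists also lay below percentile 50, 88.0% in WT and 83.8% in Spen KO clone 3.

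Of the 16 Spen KO clone 3 peaks that were shared, 2 had both replicate percentiles above both of WT, where 23.1% of all shared peaks did, and 5 had both below, where 22.8% of all did. In the remaining 9 the replicates of the lists overlapped. The count above WT is not stable. It was 4 when replicates were compared in column order only, a choice made after seeing the data, and 0 with a 10 kb window. The count below WT was 5 in both cases. In column order, 30.3% of all shared peaks lay above WT and 30.3% below. The median difference in score percentile, Spen KO clone 3 minus WT, was -2.82 over these 16 peaks and -0.0252 over all 16933, and with percentiles taken among shared peaks only it was -1.17 and -0.248. Differences between the lists at single peaks are therefore given with both replicate values, and a peak is said to stand apart only when the replicates of the lists did not overlap.

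Within 1 kb of a coding start, 5 of the 8 genes had a peak in WT (Pou5f1, Sox2, Sall4, Utf1 and Lin28a) and 3 had one in Spen KO clone 3 (Pou5f1, Dppa3 and Utf1). Over all coding genes, 45.2% had a start peak in WT and 41.4% in Spen KO clone 3. The order of the 2 counts rests on peaks of weaker reproducibility: among peaks with an IDR (irreproducible discovery rate) of 0.01 or less, 1 of the 8 genes had a start peak in WT (Utf1) and 2 had one in Spen KO clone 3 (Pou5f1 and Utf1), against 35.9% and 29.2% of all coding genes. In the full lists, Sox2, Sall4 and Lin28a had one in WT only, as did 8.22% of all coding genes, and Dppa3 had one in Spen KO clone 3 only, as did 4.43%. Counted by peaks, 20.6% of all WT peaks at coding starts and 13.4% of those of Spen KO clone 3 were found in 1 list only. Nanog and Gdf3 had no start peak in either list. The median start peak of the genome stood at percentile 61.0 in WT and 58.5 in Spen KO clone 3. Only the Utf1 start peak in WT, at 64.7, lay above the median start peak of its list. Ranked among the start peaks of their list, those found in 1 list only were low. In WT, Sox2 stood at percentile 16.7, Sall4 at 20.4 and Lin28a at 8.15, and in Spen KO clone 3 Dppa3 stood at 4.35. Pou5f1 stood at 25.2 in WT and 37.9 in Spen KO clone 3, and Utf1 at 54.2 and 45.4.

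**Figure D1:**
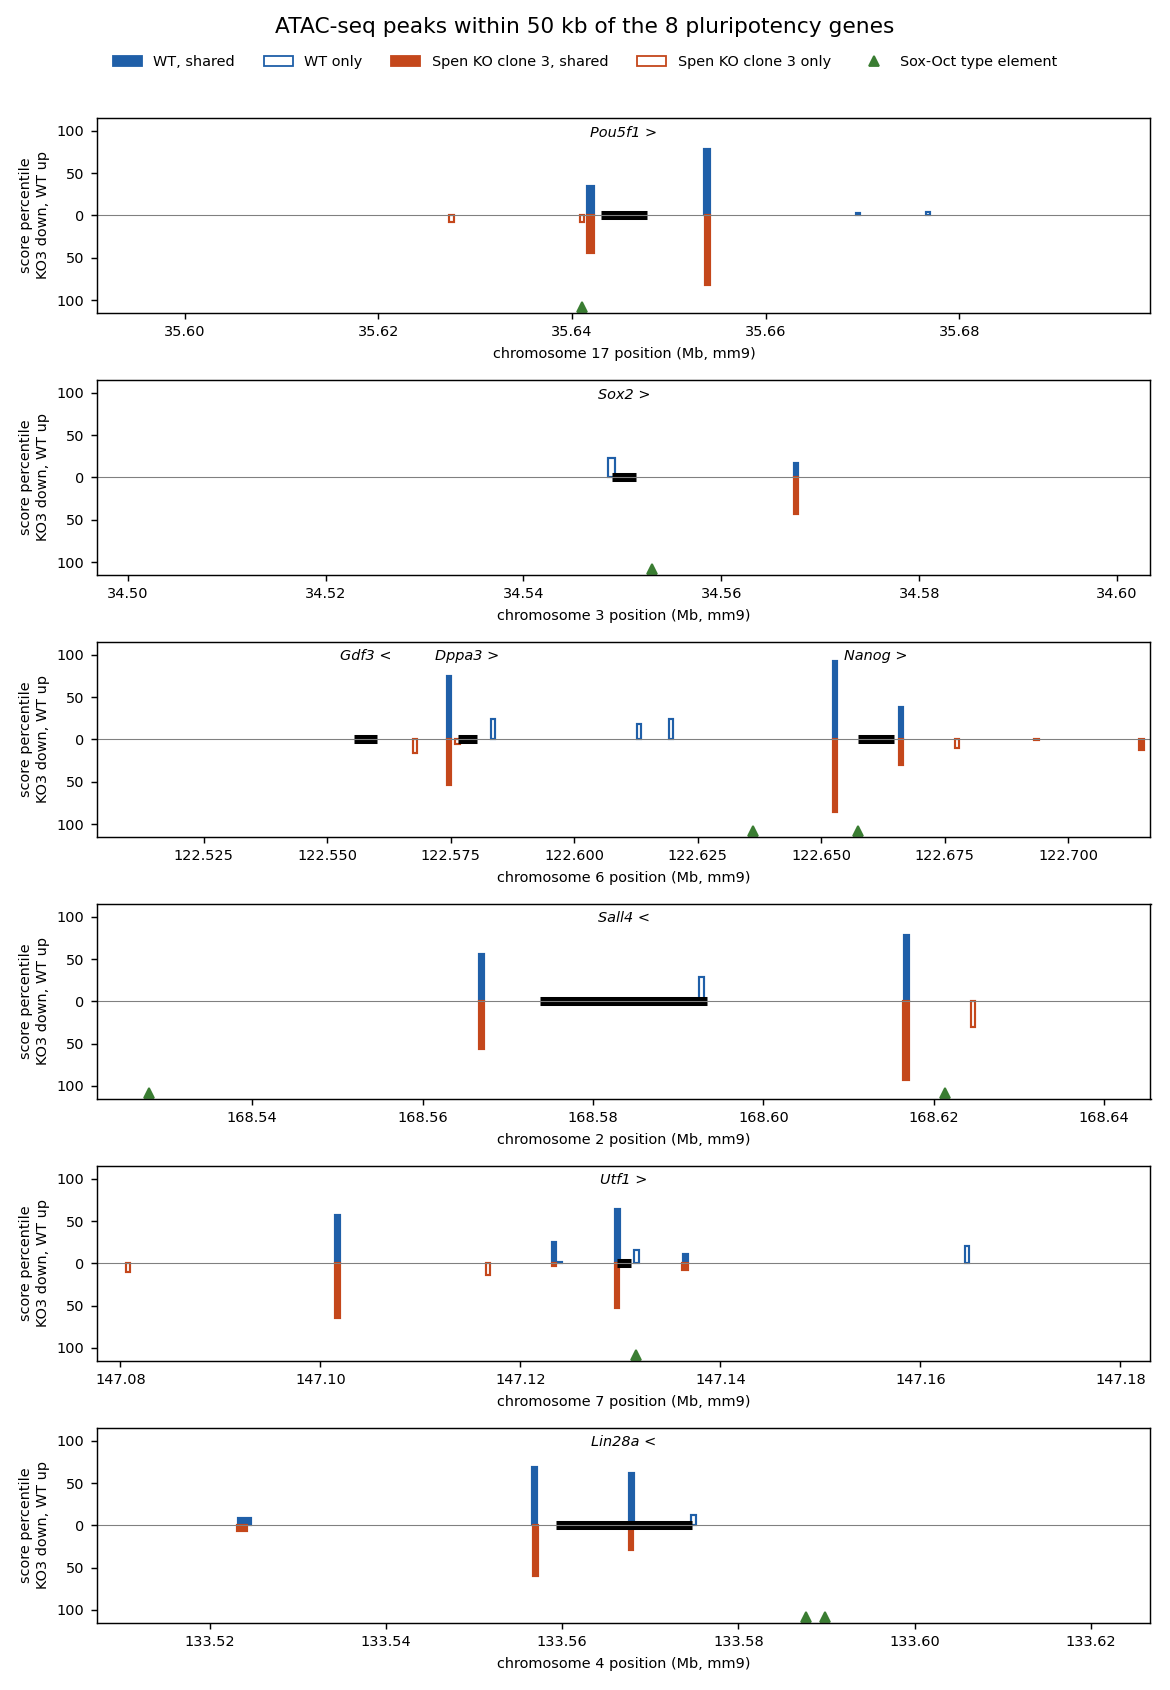
Peaks around the 8 genes, drawn along mm9 coordinates (Mb), with the score percentile within each list as bar height, WT upward and Spen KO clone 3 downward. Filled bars are shared peaks, open bars were found in 1 list only, black bars are gene bodies with the arrowhead in the direction of transcription, triangles mark Sox-Oct type elements, and narrow peaks are widened to be visible; all open bars are short, the tallest at percentile 30.3.

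Pou5f1 (chr17:35642982-35647721, plus strand) encodes Oct4, the POU factor without which the pluripotent lineage is not formed, and its upstream region is known to hold a proximal and a distal enhancer, the distal one being used in naive mESCs. The peak nearest the gene was shared and lay 1.07 kb upstream (chr17:35641570-35642248, 679 bp in WT), with its edge 0.734 kb from the gene start and no overlap with the start itself. Its replicate values were 12.5 and 20.7 in WT (percentiles 15.0 and 56.6, rank 14940) and 17.8 and 16.2 in Spen KO clone 3 (percentiles 49.3 and 43.0, rank 13151). The WT replicates lay on either side of those of Spen KO clone 3, so the lists did not differ there beyond the spread of replicates.

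A separate Spen KO clone 3 peak of 348 bp lay further upstream, 1.96 kb from the start (chr17:35640848-35641195), with values of 10.2 and 9.25, percentiles 9.83 and 7.24, rank 21826 and an IDR of 0.0247. WT had no peak there, and the nearest WT peak was the shared one, 0.375 kb away. This small peak holds a Sox-Oct type element 1984 bases before the gene start (chr17:35640998-35641008, minus strand), in the stretch known as the distal enhancer. No other peak around Pou5f1 in either list held such an element.

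The other peaks around Pou5f1 belong to its gene-dense neighbourhood near the major histocompatibility complex. The strongest was shared and lay at the starts of Tcf19 and Cchcr1, 11.0 kb downstream, overlapping an exon of each. Its replicate percentiles were 65.1 and 85.6 in WT and 75.3 and 86.4 in Spen KO clone 3. Found in WT only were a peak near the start of Psors1c2, outside the gene record (chr17:35669348-35669747, 400 bp, values 8.76 and 8.76, percentiles 2.82 and 4.09), and an intergenic peak 33.7 kb downstream (chr17:35676576-35676856, 281 bp, values 8.68 and 10.1, percentiles 2.51 and 7.16). Found in Spen KO clone 3 only was an intergenic peak 15.4 kb upstream (chr17:35627369-35627715, 347 bp, values 9.35 and 9.67, percentiles 7.70 and 8.26). The peaks found in 1 list only around Pou5f1 all ranked below percentile 10 of their list by score.

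Sox2 (chr3:34548927-34551383, plus strand) encodes the HMG-box partner of Oct4, and it lies within an intron of the long noncoding gene Sox2ot. Its start was covered in WT only, by a peak of 677 bp (chr3:34548536-34549212) with 46 CpG dinucleotides and 59.4% GC. The replicate values were 11.8 and 17.8, percentiles 13.2 and 44.4, rank 17433, with an IDR of 0.0155. The nearest Spen KO clone 3 peak was 18.2 kb away from it. The WT start peak was therefore a lower-ranking call whose replicates lay far apart, and its percentile among all WT start peaks was 16.7.

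The other Sox2 peak was shared, in a Sox2ot intron 18.6 kb downstream of the Sox2 start (chr3:34567366-34567715 in WT, 350 bp, and chr3:34567372-34567729 in Spen KO clone 3, 358 bp). Its values were 13.6 and 13.1 in WT (percentiles 19.9 and 17.8) and 15.4 and 18.2 in Spen KO clone 3 (percentiles 36.3 and 53.3). It stood apart, higher in Spen KO clone 3 in both replicates, and it was the sole Sox2 peak of that list within 50 kb. Over all coding genes the median number of peaks within the same reach was 2.00 in each list, and Sox2 had 2 in WT and 1 in Spen KO clone 3.

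Nanog (chr6:122657507-122664651, plus strand) encodes the homeobox factor that stabilizes the undifferentiated state and varies from cell to cell in serum. No peak overlapped its body or start in either list, and the nearest lay 4.36 kb from the start in WT and 4.33 kb in Spen KO clone 3. That upstream peak, in the region of a known Nanog enhancer, was the best-ranked WT peak at any of the 8 loci: 703 bp at 4.71 kb upstream (chr6:122652448-122653150), values 40.0 and 44.0, percentiles 90.8 and 94.4, rank 1553. In Spen KO clone 3 it spanned 783 bp (chr6:122652395-122653177), with values of 28.0 and 31.6, percentiles 81.3 and 87.5 and rank 3471. It stood apart, lower in Spen KO clone 3 in both replicates, at 85.4 by score against 93.2 in WT.

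A second shared peak lay 8.57 kb downstream of the Nanog start, past the end of the gene, at percentiles 28.6 and 50.2 in WT and 37.3 and 27.5 in Spen KO clone 3, which overlap. Found in WT only were intergenic peaks 44.4 kb upstream (chr6:122612751-122613373, 623 bp, values 14.3 and 12.9, percentiles 23.7 and 17.3) and 37.9 kb upstream (chr6:122619409-122619800, 392 bp, values 15.8 and 14.1, percentiles 31.2 and 23.8). The latter holds a Ctcf type motif and has an IDR of 0.00646. These WT-only peaks lie between Dppa3 and Nanog and are within 50 kb of both.

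On the other side of Nanog, 2 peaks were found in Spen KO clone 3 only. One was intergenic, 20.0 kb downstream (chr6:122677327-122677689, 363 bp, values 9.68 and 10.9, percentiles 8.98 and 13.3), and the other lay in Slc2a3, a glucose transporter gene, beside a coding start (chr6:122693428-122693685, 258 bp, values 6.10 and 6.66, percentiles 0.0379 and 0.588). The Slc2a3 peak had rank 23696 of 23722, close to the bottom of the list. A further Slc2a3 intron peak, 57.3 kb from the Nanog start, was shared with a WT peak that lies just beyond the 50 kb limit. So the WT-only peaks around Nanog were on its upstream side and the Spen KO clone 3-only peaks on its downstream side, all below percentile 25 by score.

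Sall4 (chr2:168573832-168593443, minus strand) encodes a zinc-finger factor that binds with Oct4 and Nanog and sustains Pou5f1 expression. Its most upstream coding start was covered in WT only, by a 442 bp peak 0.490 kb inside the gene record, over a coding exon of Sall4 and an exon of the lincRNA Gm14261 (chr2:168592512-168592953), with values of 16.5 and 14.9, percentiles 34.6 and 28.2, rank 16295 and an IDR of 0.0265. The nearest Spen KO clone 3 peak was 23.5 kb from it. This was the best-ranked of the peaks found in WT only at the 8 loci.

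Upstream of Sall4, an intergenic peak 23.3 kb from the gene start was shared (chr2:168616477-168617107, 631 bp in WT, and chr2:168616448-168617101, 654 bp in Spen KO clone 3). Its values were 28.3 and 29.5 in WT (percentiles 75.2 and 80.6, rank 4873) and 40.2 and 35.6 in Spen KO clone 3 (percentiles 94.2 and 91.6, rank 1601). It stood apart, higher in Spen KO clone 3 in both replicates, and was the best-ranked Spen KO clone 3 peak at any of the 8 loci. Further upstream, at 31.2 kb, an intergenic peak was found in Spen KO clone 3 only (chr2:168624420-168624818, 399 bp, values 12.7 and 16.7, percentiles 20.6 and 45.5, IDR 0.0234). The other shared peak was at the start of Atp9a, which encodes a membrane ATPase, at percentiles 58.3 and 53.4 in WT and 72.5 and 31.8 in Spen KO clone 3. At Sall4 a start peak was thus called in WT only. A start peak of Spen KO clone 3 may lie under its threshold, so this gives no direction to set against the upstream peak.

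Dppa3 (chr6:122576428-122580290, plus strand) encodes Stella, a maternal and germline protein that protects DNA methylation marks in the early embryo and is switched on in only some mESCs in serum. Its best peak was shared and lay 1.77 kb upstream (chr6:122574440-122574880, 441 bp in WT, and chr6:122574480-122574924, 445 bp in Spen KO clone 3). Its values were 26.8 and 28.0 in WT (percentiles 72.0 and 77.9, rank 5592) and 16.5 and 20.9 in Spen KO clone 3 (percentiles 42.6 and 64.2, rank 10829). It stood apart, lower in Spen KO clone 3 in both replicates.

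The Dppa3 start itself was covered in Spen KO clone 3 only, by a 288 bp peak (chr6:122576219-122576506) with values of 9.38 and 8.39, percentiles 7.87 and 4.66, rank 22504 and an IDR of 0.0453. The nearest WT peak was the shared one, 1.34 kb away. At percentile 5.14 by score this start peak was among the weakest of its list, and far below the upstream peak of the same list at 54.4. A WT-only intergenic peak lay 7.10 kb downstream of the Dppa3 start (chr6:122583283-122583779, 497 bp, values 15.6 and 14.4, percentiles 30.4 and 25.4, IDR 0.00628).

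Gdf3 (chr6:122555421-122560105, minus strand) encodes a TGF-beta family ligand made by pluripotent cells, and it neighbours Dppa3 in the opposite orientation. No peak overlapped the gene or its start in either list, and the nearest lay 14.3 kb from the start in WT and 7.29 kb in Spen KO clone 3. The nearer one was an intergenic peak between Gdf3 and Dppa3, found in Spen KO clone 3 only (chr6:122567396-122567930, 535 bp, values 10.4 and 13.4, percentiles 10.8 and 26.7, IDR 0.0434). All the other peaks within reach of Gdf3 were those already given for Dppa3.

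Utf1 (chr7:147129688-147131011, plus strand) encodes a chromatin-bound cofactor restricted to pluripotent and germ cells, and it had the most peaks of the 8 genes, 7 in WT and 6 in Spen KO clone 3. As many or fewer were found for 97.7% of coding genes in WT and 96.5% in Spen KO clone 3. Its start peak was shared, 391 bp in WT (chr7:147129513-147129903) and 380 bp in Spen KO clone 3 (chr7:147129505-147129884), overlapping coding sequence of the gene. Its values were 17.7 and 28.8 in WT (percentiles 40.3 and 79.5, rank 8043) and 16.5 and 20.4 in Spen KO clone 3 (percentiles 42.5 and 62.3, rank 11088). The replicates of the lists overlapped, and this was the only start among the 8 genes that a peak covered in both lists.

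Downstream of Utf1, 1.92 kb from its start and past its end, a 450 bp peak was found in WT only (chr7:147131384-147131833), with values of 13.8 and 12.7, percentiles 20.6 and 16.0, rank 19069 and an IDR of 0.0378. The nearest Spen KO clone 3 peak was 1.50 kb away, at the Utf1 start. This peak holds the Sox-Oct type element of the known Utf1 enhancer (chr7:147131584-147131594, minus strand). At Pou5f1 the element was thus covered in Spen KO clone 3 only and at Utf1 in WT only, each time by a low-ranking peak.

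Around Utf1, 2 shared peaks stood apart, both lower in Spen KO clone 3. In an intron of Kndc1, 6.36 kb upstream (chr7:147123128-147123534, 407 bp in WT, and chr7:147123118-147123541, 424 bp in Spen KO clone 3), values were 12.6 and 17.7 in WT (percentiles 15.2 and 44.1) and 7.92 and 8.37 in Spen KO clone 3 (percentiles 2.33 and 4.62). Over an exon of the lincRNA Gm16201, 6.85 kb downstream (chr7:147136297-147136781, 485 bp in WT, and chr7:147136165-147136728, 564 bp in Spen KO clone 3), values were 11.5 and 11.3 in WT (percentiles 11.5 and 10.03) and 9.47 and 9.80 in Spen KO clone 3 (percentiles 8.22 and 8.96). The latter difference is small, -2.74 percentile points by score (Spen KO clone 3 minus WT) and -0.967 when percentiles are taken among shared peaks only, and the Kndc1 difference went from -22.5 to -13.2 in the same way. The remaining shared peak, in a Kndc1 intron 28.0 kb upstream, overlapped between lists at percentiles 62.7 and 48.5 in WT and 68.6 and 58.3 in Spen KO clone 3.

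The other Utf1 peaks found in 1 list only were at neighbouring genes. In WT they were a 315 bp peak over Kndc1 coding sequence (chr7:147123759-147124073, values 8.55 and 6.92, percentiles 1.80 and 0.892), 0.218 kb from a Spen KO clone 3 peak, and a 301 bp peak at the start of 6430531B16Rik (chr7:147164490-147164790, values 13.5 and 15.1, percentiles 19.7 and 29.7). In Spen KO clone 3 they were a 445 bp peak at the start of Kndc1 (chr7:147080512-147080956, values 8.40 and 12.3, percentiles 4.24 and 20.8, IDR 0.0478) and a 404 bp peak over Kndc1 coding sequence (chr7:147116547-147116950, values 10.8 and 11.6, percentiles 12.6 and 17.1). All of them ranked below percentile 25 by score.

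Lin28a (chr4:133559245-133574756, minus strand) encodes an RNA-binding protein that blocks maturation of let-7 microRNAs in pluripotent cells. Its start was covered in WT only, by a 551 bp peak (chr4:133574599-133575149) with values of 12.8 and 11.3, percentiles 16.2 and 9.91, rank 19946 and an IDR of 0.0164, and the nearest Spen KO clone 3 peak was 6.56 kb away. That peak lay in an intron of Lin28a, 6.91 kb into the gene, and was the only shared peak inside the body of any of the 8 genes away from a start (chr4:133567556-133568129, 574 bp in WT, and chr4:133567588-133568037, 450 bp in Spen KO clone 3). Its values were 23.4 and 21.5 in WT (percentiles 62.6 and 60.1, rank 8620) and 13.4 and 15.4 in Spen KO clone 3 (percentiles 24.4 and 38.5, rank 16866). It stood apart, lower in Spen KO clone 3, with the largest score percentile difference of the 16 shared peaks, 33.2 points.

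The other Lin28a peaks were shared and sat at the starts of its neighbours Dhdds and Hmgn2. The Dhdds peak was at percentiles 58.5 and 75.6 in WT and 78.1 and 26.4 in Spen KO clone 3, and the Hmgn2 peak, the longest at the 8 loci at 1510 bp in WT, was at 12.8 and 7.13 against 3.07 and 11.4. By score both were lower in Spen KO clone 3, at 59.5 against 68.6 for Dhdds and 6.12 against 8.95 for Hmgn2, with replicates that overlapped between lists.

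**Figure D2:**
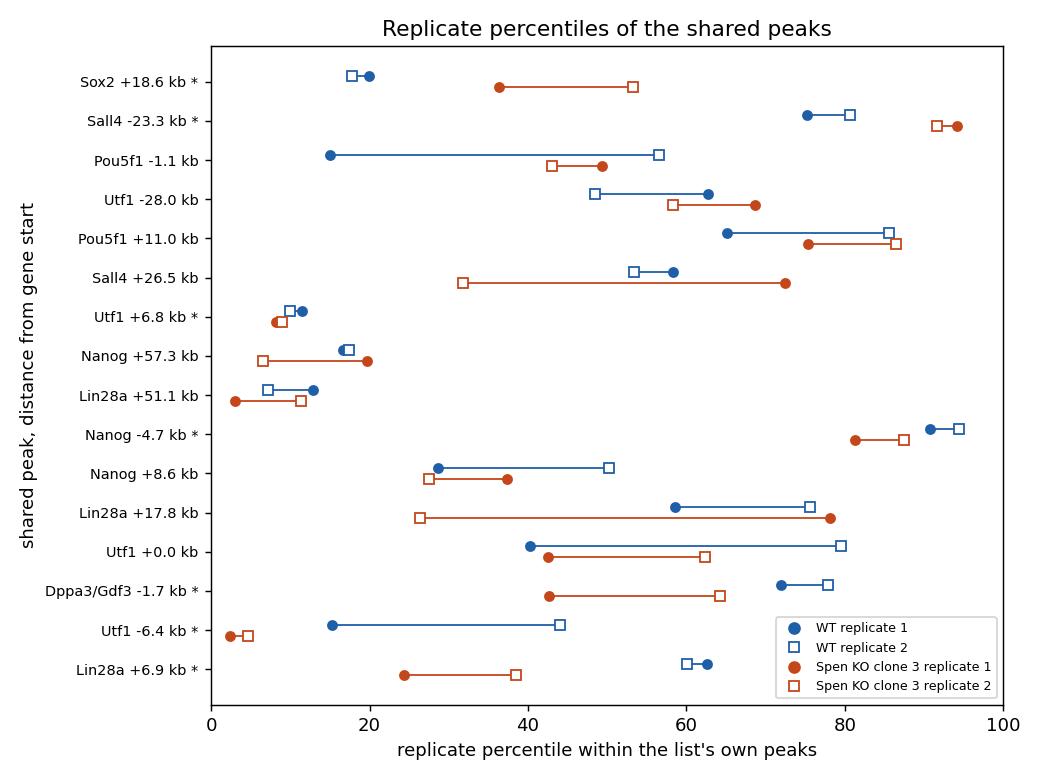
Percentile of each replicate value within its own list (x axis, percent) for the 16 shared peaks at the 8 loci, named by gene and distance from the gene start and ordered by the difference in score percentile. Circles are replicate 1 and squares replicate 2, joined by a line; an asterisk marks the peaks where the lists do not overlap, 2 with Spen KO clone 3 above WT and 5 below.

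The DNA under the peaks was searched on both strands for motifs of the factors of this network, in the 300 bp around each peak midpoint. The motifs were the Oct octamer ATGCAAAT, a Sox-Oct type element (CNTTGT, any base, then ATGC), an Esrrb type TCAAGGTCA, a Klf type GGGNGTGG, a Stat type TTCCNGGAA and a Ctcf type motif. The octamer and the Sox-Oct type element share the letters ATGC, so a match to one can overlap a match to the other. Among the 26 WT peaks 9 held at least 1 motif and among the 25 Spen KO clone 3 peaks 7 did, against 29.9% and 29.3% of all peaks searched. The peaks searched were 22700 of the WT list and 23659 of the Spen KO clone 3 list, slightly fewer than the full lists.

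The Sox-Oct type element was in 1 of 26 WT peaks and 1 of 25 Spen KO clone 3 peaks, and in 1.25% and 1.38% of all peaks searched. The octamer was in 2 WT peaks and 1 Spen KO clone 3 peak, against 3.30% and 3.34% of all. The Klf type motif was in 5 and 6 peaks, against 20.3% and 19.6% of all, and the Ctcf type in 2 and 1, against 5.25% and 5.14%. No peak at these loci held the Esrrb type, present in 0.537% and 0.740% of all peaks searched, or the Stat type, present in 1.24% and 1.12%. With so few peaks these shares are a description only.

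Read the other way, from the elements to the peaks, the sequence within 50 kb of the 8 genes held 9 Sox-Oct type elements, of which 1 lay in a WT peak and 1 in a Spen KO clone 3 peak. Over the autosomes and the X chromosome, 2.43% of 15416 such elements lay in WT peaks and 2.66% in Spen KO clone 3 peaks. The uncovered ones included the element 4044 bases after the Sox2 start, in the region of its known downstream enhancer, with the nearest WT peak 3.76 kb and the nearest Spen KO clone 3 peak 14.4 kb away, and the element 72 bases before the Nanog gene record, in its known promoter, with the nearest peaks 4.29 and 4.26 kb away. The octamer occurred 25 times around the 8 genes, with 3 overlapping a WT peak and 2 a Spen KO clone 3 peak, and genome-wide 0.473% and 0.484% of 233885 octamers did so. The best-known Sox-Oct elements of these genes were therefore either outside the peaks or inside a low-ranking peak of 1 list.

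The Sox-Oct type elements of Pou5f1, Utf1, Sox2 and Nanog are shown on the strand where the element reads, with the match in capitals, since the first of them was covered in Spen KO clone 3 only, the next in WT only, and the last pair in neither list. The Pou5f1 stretch is chr17:35640944-35641063 and the Utf1 stretch chr7:147131530-147131649, both minus strand; the short ones give 10 bases on either side of chr3:34552971-34552981 (plus strand) and chr6:122657435-122657445 (minus strand).
Pou5f1: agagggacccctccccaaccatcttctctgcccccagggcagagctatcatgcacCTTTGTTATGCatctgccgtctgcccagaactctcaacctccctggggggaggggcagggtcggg
Utf1: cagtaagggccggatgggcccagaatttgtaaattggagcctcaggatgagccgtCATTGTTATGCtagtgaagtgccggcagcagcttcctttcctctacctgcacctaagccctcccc
Sox2: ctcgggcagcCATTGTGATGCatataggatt
Nanog: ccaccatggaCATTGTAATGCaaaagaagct

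The shared Dppa3 upstream peak held a pair of octamers on the same strand, 1773 and 1729 bases before the gene start, and it was the only shared peak at these loci with an octamer. The stretch is chr6:122574621-122574740, shown on the minus strand with the octamers in capitals, because this octamer-bearing peak stood apart between the lists.
Dppa3: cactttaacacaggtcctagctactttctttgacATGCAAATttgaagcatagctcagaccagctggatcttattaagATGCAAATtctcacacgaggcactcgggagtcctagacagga

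The upstream peaks of Nanog and Sall4, the best-ranked of each list at these loci, held none of the 6 motifs over their whole length. The 120 bases at the centre of each WT peak are chr6:122652740-122652859 (plus strand) and chr2:168616733-168616852 (shown on the minus strand, that of Sall4), given because these strongest peaks stood apart in opposite directions.
Nanog: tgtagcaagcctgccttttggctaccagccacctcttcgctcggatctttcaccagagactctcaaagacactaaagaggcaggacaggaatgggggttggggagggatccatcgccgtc
Sall4: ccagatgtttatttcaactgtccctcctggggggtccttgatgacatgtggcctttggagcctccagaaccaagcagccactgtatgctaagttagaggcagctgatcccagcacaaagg

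A list of 30 other genes of the pluripotency network gives the setting of these loci. Of these, 18 had a start peak in WT, where 45.2% of all coding genes did, and 18 in Spen KO clone 3, where 41.4% did. A start peak was present in both lists at 17 and in neither at 11. The 17 include Tcf3, which in this annotation is the E2A gene and not Tcf7l1. Nr0b1, an orphan nuclear receptor gene, had a start peak in WT only (percentiles 11.0 and 10.3), and Klf4, a reprogramming factor gene, in Spen KO clone 3 only (percentiles 8.93 and 6.43), against 8.22% and 4.43% of all coding genes. As at Sox2, Sall4, Lin28a and Dppa3, the start peaks that only 1 list held ranked in the lower part of their list. The Sall4 peak ranked highest among them, at percentile 28.4 by score.

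Among the 17 start peaks in both lists, Spen KO clone 3 stood apart below WT at 6 and above it at 1, and the replicates overlapped at 10. Of all shared peaks 22.8% stood apart below and 23.1% above, but these shares include peaks away from starts and are not those of shared start peaks. The largest score percentile differences downward were at Lin28b, the paralog of Lin28a (65.5 and 88.3 in WT, 18.1 and 40.1 in Spen KO clone 3), at Tcf3, here E2A (65.6 and 36.1 against 18.1 and 40.4), and at Tet2, a methylcytosine oxidase gene (52.8 and 62.4 against 32.3 and 38.2). The largest upward were at L1td1, an RNA-binding protein gene (65.7 and 34.7 in WT, 56.4 and 88.0 in Spen KO clone 3), at Sall1, a paralog of Sall4 (17.7 and 48.2 against 35.7 and 66.5), and at Rif1, a replication-timing factor gene (52.5 and 51.8 against 69.9 and 67.2). Of these 6 genes, Lin28b, Tet2 and Rif1 stood apart, and at Tcf3, L1td1 and Sall1 the replicates overlapped.

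The cell type was checked by the starts of marker genes, where an open start is not expression. Of 8 mESC markers, 5 had a start peak in WT and 4 in Spen KO clone 3, the difference being Sox2, against 45.2% and 41.4% of all coding genes, so start peaks at these few genes are a weak check of the cell type. Of 4 mesoderm markers none did in either list, and of 4 fibroblast markers Thy1 did in WT only. Endoderm starts were open at Gata4 and Foxa2 in WT and at Foxa2 in Spen KO clone 3, neural starts at Pax6 and Neurog2 in WT and at Neurog2 in Spen KO clone 3, of 3 measured, and of 4 trophoblast markers only Tfap2c in both. The start of Spen itself carried a shared peak (values 15.7 and 18.7 in WT, 20.5 and 13.1 in Spen KO clone 3), the only peak of each list in the gene, so the lists do not check the deletion.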

How the data were processed

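Peaks were analysed for WT and Spen KO clone 3 as listed by the authors, 1 list per line. Per the study's methods and the submitters' processing notes, reads were trimmed (cutadapt), mapped to mm9 (Bowtie2), kept if unique and properly paired, and deduplicated; MACS2 called peaks per technical replicate (no shifting model), which were filtered at an Irreproducible Discovery Rate (IDR) of 0.05. For each peak the authors deposited a score for each replicate, on an unnamed scale, with the IDR and length. Scores were ranked within a list only. Read depth is unknown, so a peak found in 1 list only also depends on depth and on the IDR threshold.

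Computed here were overlaps (at least 1 bp), percentiles, start peaks (within 1 kb of a coding start, GENCODE for mm9) and motif matches, tested on simulated data. A peak was placed at the start of a neighbouring gene when it lay within 500 bp of a coding start of that gene. Start peaks, peaks found in 1 list only and shared peaks that stood apart were printed in full; network genes were named for a start peak in 1 list only or the 3 largest differences each way. Older gene symbols were matched through RefSeq. No test between lines was made. Members and lists were chosen with earlier results of these data known. Software was pandas 2.3.3 and numpy 2.4.6 under Python 3.11.15, with pysam 0.24.0 for sequence and matplotlib 3.10.9 for figures.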

Additional observations from a re-analysis of the deposited data

How the results depend on the processing

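With a 10 kb window the loci held 17 WT and 14 Spen KO clone 3 peaks, of which 6 and 3 were found in 1 list only; the median percentiles were 34.3 and 37.2, and 0 shared peaks stood apart above WT, since the Sox2 and Sall4 peaks lie farther out. With 100 kb there were 44 WT peaks, 19 of them in WT only, and 36 Spen KO clone 3 peaks, 11 of them in that list only. With 150 kb, chosen after seeing the data, there were 60 and 51. At an IDR of 0.01 or less 11 peaks of each list remained. Of these, 2 of each were in 1 list only: in WT they were intergenic peaks near Dppa3 and between Dppa3 and Nanog, and in Spen KO clone 3 they were the shared peaks upstream of Pou5f1 and downstream of Sox2, whose WT partners (IDR 0.0140 and 0.0235) did not pass, while 0 of its 9 peaks found in 1 list only passed, against 27.8% of all such peaks of its list (in WT 2 of 11, against 31.3%). At that IDR 1 gene kept a start peak in WT (Utf1) and 2 in Spen KO clone 3 (Pou5f1 and Utf1), so the order of the main counts, 5 and 3, turned round. Among peaks at or above the median score there were 9 and 8, and 0 and 0 in 1 list only. Such peaks are uncommon there in the whole lists. From percentile 50 to 75 they made up 11.5% of WT peaks and 16.1% of Spen KO clone 3 peaks, and above 75 they made up 0.809% and 2.43%. The median percentile from a single replicate ran from 26.2 to 36.9 in WT and from 20.6 to 26.7 in Spen KO clone 3, so the order of the lists turned round, as it did with the lower value. Requiring 50% overlap, joining peaks within 500 bp, equal list lengths and other definitions of a start moved no count by over 1.5 times. Nor did other motif searches for the number of peaks with any motif, but the WT peaks with an octamer went from 2 to 1 when only the peak itself was searched. Percentiles among shared peaks moved the median difference from -2.82 to -1.17, reversed 0 of 16 single differences, and of the peaks that stood apart moved the 2 weak ones at Utf1 by over 1.5 times, from -22.5 to -13.2 and from -2.74 to -0.967. No paired analysis was possible because the files do not say which replicate of WT, if any, goes with which of Spen KO clone 3, and no test was made. Comparing values in column order only, chosen after seeing the data, gave 4 shared peaks above WT and 5 below, against 30.3% and 30.3% of all shared peaks. Among the 17 network starts it gave 4 above and 7 below. The 30.3% shares include peaks away from starts and are not those of shared start peaks. Unknown depth limits every peak found in 1 list only: a peak absent from a list may lie under its threshold.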

Other observations

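Peaks beyond 50 kb of Sox2 were examined after the values within it had been seen, because a control region far downstream is known to drive Sox2 in mESCs. Between 50 and 150 kb from the gene WT had 7 peaks and Spen KO clone 3 had 6, of which 5 were shared. Found in 1 list only were 2 of the WT peaks and 1 of the Spen KO clone 3 peaks, against 25.7% and 28.6% of all peaks. The shared peak 111 kb downstream of the Sox2 start (chr3:34660101-34660548 in WT), in that control region, had percentiles of 55.4 and 30.0 in WT and 50.7 and 60.9 in Spen KO clone 3, which overlap. Of the others, the shared peak 146 kb downstream stood apart above WT (45.5 and 27.1 in WT, 72.0 and 64.1 in Spen KO clone 3) and the one 124 kb downstream stood apart below (22.3 and 37.6 against 19.9 and 20.8). Of all shared peaks, 23.1% stood apart above WT and 22.8% below. A Spen KO clone 3-only peak lay 110 kb downstream (chr3:34658974-34659444, percentiles 11.6 and 11.3), next to the control region peak. WT-only peaks lay 78.5 kb downstream (percentiles 8.68 and 22.9) and upstream of the gene (chr3:34475102-34475450, percentiles 44.9 and 47.1); the upstream one, at 45.6 by score, ranked above every peak found in 1 list only within 50 kb of the 8 genes. Sox2 thus had more peaks in each list far downstream than within 50 kb.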
